A study of Mus musculus with 8 samples.

Results

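The PDGF, VEGF and Kit genes were examined in mouse ES cells before and after treatment with retinoic acid (RA), the vitamin A derivative that makes ES cells leave self-renewal. The set holds 10 genes of the 36406 gene names on the array, read by 13 of its 55681 probes, and was taken as every non-control probe whose gene name is *Pdgfa*, *Pdgfb*, *Pdgfc*, *Pdgfd*, *Pdgfrb*, *Vegfa*, *Vegfb*, *Vegfc*, *Kitl* or *Kit*. Both groups were E14Tg2A.4, an established mouse ES cell line, with no genetic change named for these samples. The untreated group (4 arrays) was left without treatment, and the RA group (4 arrays) received 1 µM all-trans RA for 72 h, for which the methods give medium without leukemia inhibitory factor. RNA of each replicate was hybridized to an Agilent 1-colour array, whose spots are brighter the more of a transcript the RNA holds. Cultures of a single line were compared, so RA and the withdrawal of the factor cannot be told apart, and lower RNA of a gene in these mixed cultures cannot be told apart from fewer cells that express it.

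PDGFs, VEGFs and Kit ligand are secreted or membrane-bound growth factors that act through receptor tyrosine kinases. PDGFs signal through Pdgfra and Pdgfrb and are known for recruiting pericytes and smooth muscle cells to vessels, VEGFs signal through Flt1, Kdr and Flt4 and drive the growth of blood and lymphatic vessels, and Kit ligand (Kitl, stem cell factor) signals through Kit in blood progenitors, germ cells, melanocytes and mast cells. Kit and the PDGF receptors belong to the same class of receptors (class III), and all of these receptors feed into Ras, PI3 kinase and phospholipase C.

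What was measured is the RNA that binds each 60-base probe. The first 30 bases of the main probes behind the genes that changed are given here, 5′ to 3′, because they fix which transcript region each result stands for, with positions on mm9 as the files give them; the probe for *Pdgfrb*, A_55_P1957249, is named without its sequence.

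*Pdgfd*, A_52_P264790, chr9:6376926-6376985, plus strand: gaaggggcaaagctaagaatatggctcttg

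*Vegfa*, A_52_P638895, chr17:46154387-46154446, minus strand: cagatcggtgacagtcactagcttgtcctg

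*Vegfc*, A_51_P433870, chr8:55271533-55271592, plus strand: tctgtgtttattgaaccatgtggattactg

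*Kitl*, A_55_P2001494, chr10:99558962-99559021, plus strand: tcttcagtcacaacctgcagcctgtcgtta

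*Kit*, A_66_P128434, chr5:76052394-76052453, plus strand: gtcaggtacttaaggggccacaccattgag

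A second probe of *Vegfa* is described by its values only. The pair of *Pdgfb* probes lies 1062 bases apart, while the pair for *Pdgfa* shares 51 bases and so is close to a repeat of the same measurement.

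All values below are log2 intensities relative to the 75th percentile of their array, so that a value of 0 is as bright as that percentile, and a difference is RA minus untreated on the log2 scale with its standard error (SE). A gene was called where limma gave an adjusted p under 0.05 over all probes and the change was above 1.5-fold. Each array had between 33629 and 37175 of its 59305 non-control spots well above background, and no spot was saturated. As a check of the labels, all 10 ES cell markers were called lower after RA and all 8 RA response genes were called higher. The labels name biological replicates and no shared origin of the cultures, so the p-values measure the spread between these arrays.

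After RA, 4 of the 10 genes were called higher (*Pdgfd*, *Pdgfrb*, *Vegfa* and *Kitl*), 2 were called lower (*Vegfc* and *Kit*) and 4 were not called (*Pdgfa*, *Pdgfb*, *Pdgfc* and *Vegfb*). Over all genes on the array 36.1% were called, 13.9% as higher and 22.1% as lower, 34.6% of all probes were called, and among genes well above background on all arrays of a condition 49.1% were called, 20.0% as higher and 29.1% as lower. The untreated and RA arrays did not overlap for 5 of the 10 genes, against 40.5% of all genes, 15.3% with RA above and 25.3% with RA below. The median difference over all genes was -0.28 with this scaling, and that of the 10 genes was 0.30. With quantile normalization the median over all probes was -0.0026, and the probes called higher and lower were 8152 and 8704 in place of 7196 and 12044. Relative to the median of all genes, the differences were 2.94 for *Pdgfrb*, 2.28 for *Vegfa* and 1.99 for *Kitl*, and they were -0.75 for *Vegfc* and -0.65 for *Kit*. That of *Pdgfd*, which was not well above background on any untreated array, is only bounded.

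**Figure D1:**
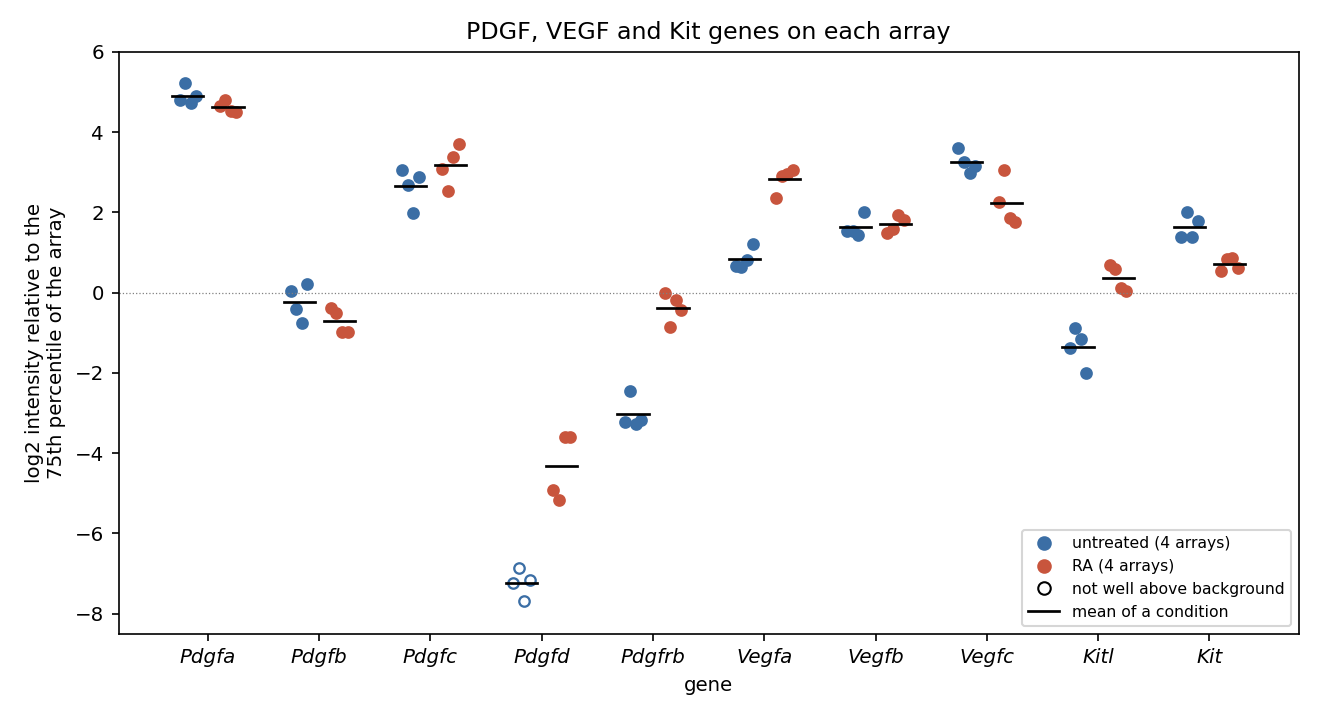
Log2 intensity relative to the 75th percentile of the array (vertical axis) of the 10 genes (horizontal axis, brightest probe of each) on the 4 untreated (blue) and 4 RA (red) arrays, in the order of the replicate numbers, with open circles for arrays on which the probe was not well above background and black bars for means. The conditions separate for *Pdgfd*, *Pdgfrb*, *Vegfa*, *Kitl* and *Kit* and overlap for the others, and levels of different probes are not comparable with each other.

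The PDGF ligands differed in what they did. *Pdgfa* encodes the chain that acts through Pdgfra, and its probe gave 4.81, 5.22, 4.72 and 4.90 in untreated replicates 1 to 4 and 4.64, 4.79, 4.54 and 4.50 after RA. Of the RA arrays 3 lay below every untreated array and replicate 2 within their range, and the difference of -0.30 (SE 0.16, 95% interval -0.65 to 0.062, adjusted p = 0.178) did not pass the test. The overlapping second probe gave -0.29. *Pdgfb*, whose product binds both PDGF receptors, read 0.029, -0.41, -0.76 and 0.22 in untreated cells and -0.39, -0.50, -0.99 and -0.99 after RA. The groups overlapped, and neither this probe (-0.49, SE 0.25, interval -1.07 to 0.088, adjusted p = 0.167) nor the dimmer one (-0.29, adjusted p = 0.481) was called.

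*Pdgfc* and *Pdgfd* encode the ligands that are secreted in a latent form and released by proteolysis. *Pdgfc* read 3.06, 2.68, 1.99 and 2.89 in untreated cells and 3.08, 2.53, 3.37 and 3.71 after RA. The replicates spread widely in both conditions and overlapped, and the difference of 0.52 (SE 0.31, interval -0.18 to 1.22, adjusted p = 0.205) was not called. It was 0.87 among the arrays of the first slide and 0.17 among those of the other.

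*Pdgfd*, whose product acts mainly through Pdgfrb, went from below detection to a low level. Its probe was not well above background on any untreated array (-7.24, -6.87, -7.68 and -7.17) and was well above it on all 4 RA arrays (-4.92, -5.16, -3.59 and -3.61). RA replicates 3 and 4 read higher than replicates 1 and 2, and all 4 lay above every untreated array. Because the untreated level is only bounded, *Pdgfd* was at least 2.51-fold higher on the scanner's background-subtracted signal, a bound that holds for this processing alone, with measured means of -7.24 ± 0.33 and -4.32 ± 0.84 (SD, n = 4 each) and an adjusted p of 0.000436. The measured difference was 2.92 here. It was 0.56 and not called with the normexp background correction and the 75th percentile. With normexp and quantile normalization it was 0.79 (adjusted p = 0.0049) and with the authors' values 0.77 (adjusted p = 0.0056), both called.

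The receptor *Pdgfrb*, which marks pericytes and other mesenchymal cells, read -3.23, -2.46, -3.27 and -3.17 in untreated cells and -0.010, -0.86, -0.18 and -0.44 after RA. Every RA array read higher than every untreated array. The difference of 2.66 (SE 0.25, adjusted p = 6.21e-05) is a 6.32-fold increase, and it was 3.03 and 2.30 within the slides. With the normexp correction it was 2.06.

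Among the VEGF ligands, *Vegfa*, the main angiogenic factor, rose 3.99-fold. Its brighter probe read 0.67, 0.63, 0.81 and 1.20 in untreated cells and 2.37, 2.90, 2.97 and 3.07 after RA, with no overlap (difference 2.00, SE 0.21, adjusted p = 9.92e-05). The second probe, which shares no base with it, read -1.54, -0.67, -1.23 and -0.52 before and -0.24, 0.59, 0.43 and 0.50 after RA. It was called as well, with a smaller difference of 1.31 (SE 0.28, adjusted p = 0.00557), and the 95% intervals of the probes, 1.53 to 2.46 and 0.68 to 1.94, overlap.

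*Vegfb*, which binds Flt1 and not Kdr, read 1.53, 1.54, 1.45 and 2.02 in untreated cells and 1.49, 1.59, 1.95 and 1.81 after RA. All RA values lay within the untreated range, and the difference of 0.075 (SE 0.18, interval -0.33 to 0.48, adjusted p = 0.748) was the smallest of the set. *Vegfc*, the lymphatic growth factor that binds Flt4, read 3.60, 3.26, 2.98 and 3.16 in untreated cells and 2.25, 3.05, 1.85 and 1.75 after RA. It was called lower (-1.03, SE 0.29, 2.04-fold, adjusted p = 0.0226), but the groups overlap, since RA replicate 2 read higher than untreated replicate 3. The call was lost with quantile normalization (adjusted p = 0.0502) and without untreated replicate 1 or RA replicate 3 or 4 (adjusted p = 0.0617, 0.0613 and 0.0613), while without RA replicate 2 the difference was -1.30.

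The Kit ligand and its receptor went in opposite directions. *Kitl* read -1.39, -0.87, -1.15 and -2.00 in untreated cells and 0.69, 0.59, 0.11 and 0.051 after RA, so that all RA arrays lay above all untreated ones. It rose 3.28-fold (difference 1.71, SE 0.27, adjusted p = 0.00102). *Kit* read 1.39, 2.00, 1.39 and 1.78 in untreated cells and 0.53, 0.83, 0.87 and 0.62 after RA. All RA arrays lay below all untreated ones, and the gene fell 1.90-fold (difference -0.93, SE 0.18, adjusted p = 0.00393). When the test was made against a change of 1.5-fold instead of 0, neither *Kit* (adjusted p = 0.206) nor *Vegfc* (adjusted p = 0.313) passed, while the genes called higher did.

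**Figure D2:**
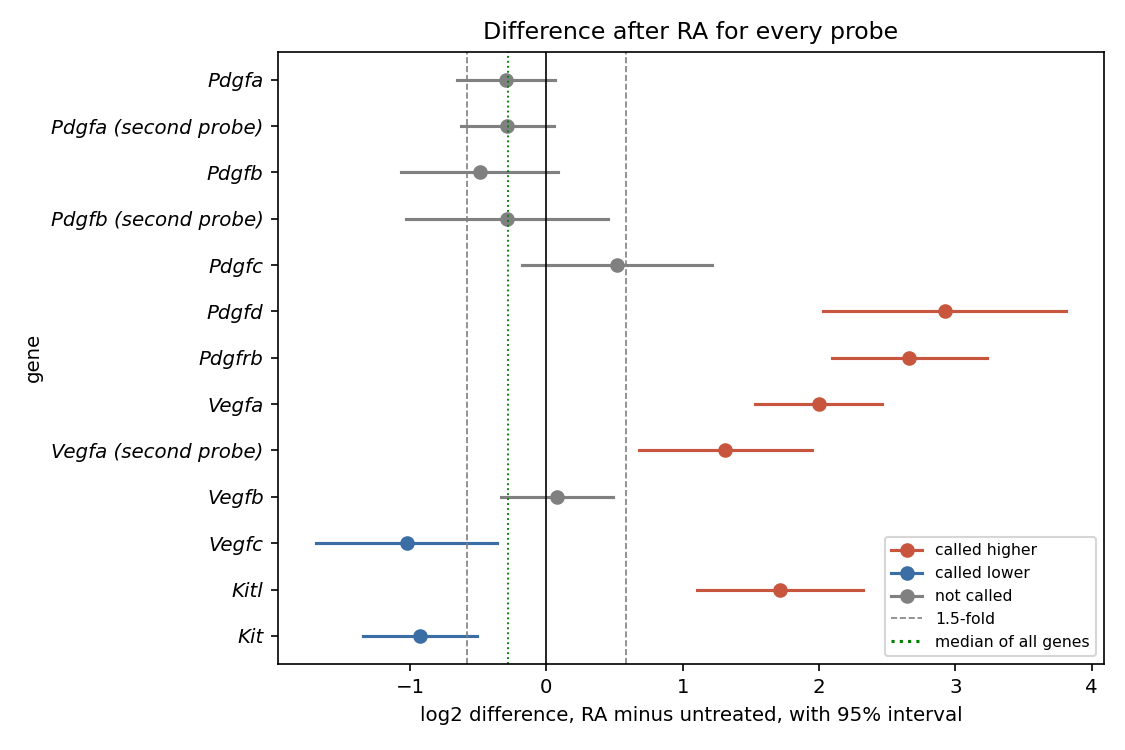
Log2 difference (RA minus untreated, 4 arrays each) with its 95% interval for all 13 probes (rows), in red where called higher, in blue where called lower and in grey where not called, with dashed lines at 1.5-fold and a dotted line at the median of all genes (-0.28). The intervals of *Pdgfd*, *Pdgfrb*, *Kitl* and both *Vegfa* probes lie above 1.5-fold, and those of *Vegfc* and *Kit* exclude 0 but reach into the range under 1.5-fold.

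A shift of a whole array cancels in a ratio between genes on it, while another background correction or quantile normalization does not. The ratios were picked with the values already known and are given without a test, each relative to its mean over the untreated arrays. The ratio of *Kitl* to *Kit* lay between -0.79 and 0.45 on the untreated arrays and between 2.23 and 3.16 after RA, a shift of 2.64 on the log2 scale. For *Pdgfrb* over *Pdgfb* the shift was 3.15, with RA arrays between 2.45 and 3.62 and untreated ones between -0.59 and 0.76. Within the VEGF ligands *Vegfa* gained 1.92 over *Vegfb* and 3.02 over *Vegfc*. With the other background corrections and normalizations the shift was 2.40 to 2.64 for *Kitl* over *Kit*, 2.53 to 3.23 for *Pdgfrb* over *Pdgfb*, 1.86 to 1.94 for *Vegfa* over *Vegfb* and 2.94 to 3.02 for *Vegfa* over *Vegfc*. None of the 4 ratios overlapped between conditions, and the spread was smallest for *Vegfa* over *Vegfb* (SD 0.12 untreated and 0.20 after RA).

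**Figure D3:**
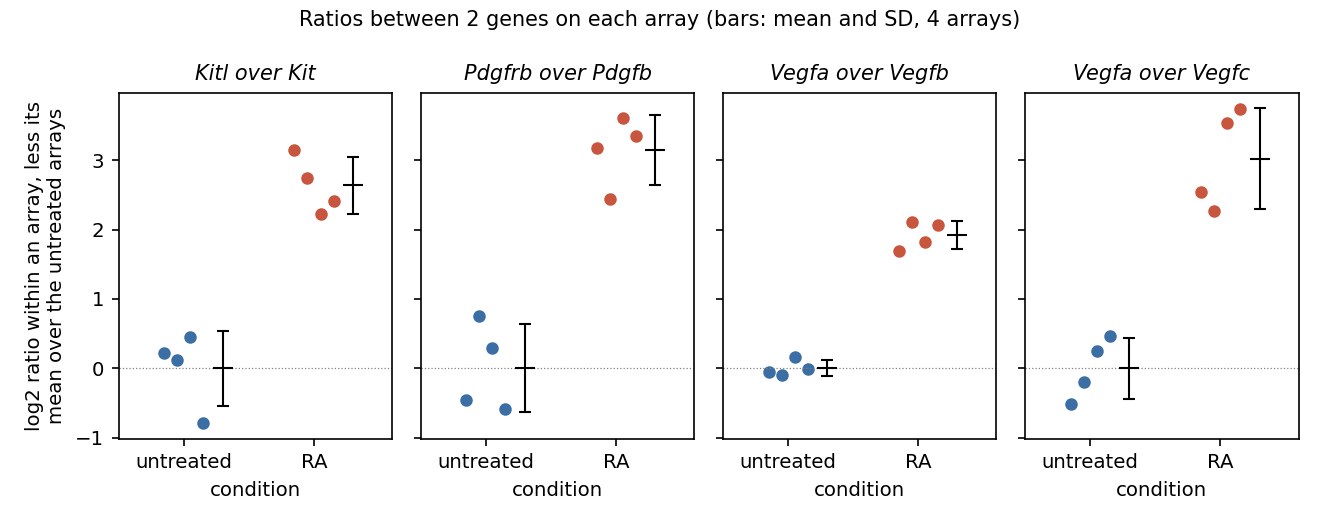
Log2 ratio of the probes of a gene pair on the same array, less its mean over the untreated arrays (vertical axis), for untreated (blue) and RA (red) arrays, with the mean and SD (n = 4) beside the points. All 4 ratios moved up after RA without overlap, by 2.64, 3.15, 1.92 and 3.02 from left to right.

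RA replicate 2 was the treated array with the highest *Vegfc* and the lowest *Pdgfd*, *Pdgfrb* and *Pdgfc*. The summed level of the 10 ES cell markers was also highest on that array, at 7.0 against 5.80 to 6.42 on the other RA arrays and 8.88 to 9.34 on the untreated ones. The summed level of the RA response genes was 6.82 and 6.97 on RA replicates 1 and 2 and 7.83 and 7.65 on replicates 3 and 4, against 3.01 to 3.77 without RA. The part of these differences in the values of the ligands and receptors was not tested.

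To show the sequence next to the start of genes that rose and of a gene that fell, the 250 bases before the RefSeq start (GRCm38.p6) are given for *Pdgfd*, *Kitl* and *Kit* and for the outer of both starts of *Vegfa*. Capitals mark the motif GGGCGG, which Sp factors bind, and the motif TATAAA, known from the start sites of many regulated genes, each searched on both strands.

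*Pdgfd*, chr9:6168236-6168485, plus strand: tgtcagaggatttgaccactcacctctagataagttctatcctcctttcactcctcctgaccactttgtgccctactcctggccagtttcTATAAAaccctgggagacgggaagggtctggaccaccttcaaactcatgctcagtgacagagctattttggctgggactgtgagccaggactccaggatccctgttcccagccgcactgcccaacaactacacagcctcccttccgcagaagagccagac

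*Kitl*, chr10:100015571-100015820, plus strand: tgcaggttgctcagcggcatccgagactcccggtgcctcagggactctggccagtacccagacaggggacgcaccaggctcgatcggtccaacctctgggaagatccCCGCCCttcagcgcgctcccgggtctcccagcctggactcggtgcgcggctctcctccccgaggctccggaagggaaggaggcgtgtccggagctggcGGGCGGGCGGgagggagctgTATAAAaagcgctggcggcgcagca

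*Vegfa*, chr17:46032378-46032627, minus strand: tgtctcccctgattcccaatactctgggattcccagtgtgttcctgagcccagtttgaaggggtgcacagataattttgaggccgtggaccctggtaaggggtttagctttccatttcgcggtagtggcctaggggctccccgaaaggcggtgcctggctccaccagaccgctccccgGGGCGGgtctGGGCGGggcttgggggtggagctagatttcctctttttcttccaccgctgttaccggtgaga

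*Kit*, chr5:75574737-75574986, plus strand: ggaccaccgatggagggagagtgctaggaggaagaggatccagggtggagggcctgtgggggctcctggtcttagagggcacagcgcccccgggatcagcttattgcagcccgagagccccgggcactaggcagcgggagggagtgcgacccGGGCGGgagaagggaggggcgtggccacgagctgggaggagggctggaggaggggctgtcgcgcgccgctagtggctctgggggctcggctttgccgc

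Promoters were found for 8 of the 10 genes, 11 in all, and not for *Pdgfb* and *Pdgfrb*. The *Kitl* promoter holds TATAAA with its first base 25 bases before the start and GGGCGG at 143, 45 and 41 bases before it, the last pair overlapping, while that of *Pdgfd* holds TATAAA 160 bases before the start and no GGGCGG. The latter motif stands at 72 and 62 bases before the shown *Vegfa* start and at 98 bases before that of *Kit*. Of 32851 promoters, 32.7% hold GGGCGG and 12.4% hold TATAAA. The motif AGGTCA, which RA receptors bind in repeats, and ACGTG, the core of the hypoxia response element, are in none of the 4 shown windows, against 14% and 16.6% of all promoters. In windows not shown, ACGTG stands 211 bases before the other *Vegfa* start and AGGTCA 241 and 73 bases before that of *Vegfb*. A match or its absence in such a window describes the letters only. The GC content was 69.2% for *Kitl*, 70.8% for *Kit*, 59.2% for *Vegfa* and 53.6% for *Pdgfd*, with a median of 52.4% over all promoters.

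For the other genes of these pathways 90 names were listed by role, and 87 of them matched a gene name of the array. Of the rest, *Hras* and *Vegfd* are other names of the listed *Hras1* and *Figf*, and *Ca9* was not matched under that name. After RA 34 of the 87 (39.1%) were called higher and 17 (19.5%) lower, against 13.9% and 22.1% of all genes. Among genes well above background on all arrays of a condition, as nearly all of the 87 were, 20.0% were called higher and 29.1% lower. The receptors of the family were called in 1 direction: 4 of 7 were higher and none was lower, with a list median of 2.58. *Nrp1*, a coreceptor for VEGF, was not well above background on any untreated array and was at least 20.2-fold higher after RA on the signal as processed here (means -6.65 and -1.21, adjusted p = 2.44e-05), while with normexp and the 75th percentile the measured log2 difference was 2.57. *Flt1*, the high-affinity receptor for Vegfa, Vegfb and Pgf, rose by 4.59 (SE 0.65, adjusted p = 0.000574), to 2.64 and 2.99 on RA replicates 1 and 2 and 0.47 and 0.33 on replicates 3 and 4. A second *Flt1* probe, dim in untreated cells, was not called (0.78). *Pdgfra*, the receptor for most PDGF chains and a marker of primitive endoderm, rose by 2.82 (SE 0.29, adjusted p = 0.000109), and *Flt4*, the receptor for Vegfc, rose by 2.58 from an untreated level that was well above background on 2 of 4 arrays. *Kdr*, the main signalling receptor for Vegfa, was not called (-0.05, SE 0.18, adjusted p = 0.819), nor were *Nrp2* (-0.49) and *Pdgfrl* (0.82).

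Both other ligands of the family on the array were called, in opposite directions. *Pgf*, a ligand of Flt1, rose by 1.69 (SE 0.25, adjusted p = 0.000768), and *Figf*, which encodes VEGF-D and shares Flt4 with Vegfc, fell by 1.08 (SE 0.21, adjusted p = 0.0038). *Vegfc* and *Figf* were thus both called lower, while the gene of their shared receptor, *Flt4*, was called higher. In the test against 1.5-fold neither *Vegfc* nor *Figf* was called, while *Flt4* was. Of the related class III genes, *Csf1*, the macrophage growth factor, rose by 4.94 on its main probe (SE 0.24, adjusted p = 3.23e-06), and *Flt3l* rose by 0.71 (adjusted p = 0.0137). The receptors *Csf1r* and *Flt3* and the ligand *Il34* were not called (0.53, -0.33 and -0.90). *Il34* was called lower with the replicate number as a block (adjusted p = 0.0412), with normexp and the 75th percentile and with the filter on dim probes.

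The genes for enzymes that release or mature the ligands were called higher in 4 of 6 cases. *Plat*, the protease known for activating PDGF-C, rose by 5.29 (SE 0.36, adjusted p = 1.28e-05), and *Plau*, known for activating PDGF-D, rose by 2.48 (SE 0.57, adjusted p = 0.00828) from a level that was well above background on 1 of 4 untreated arrays. The proprotein convertases *Pcsk5* and *Furin*, which cleave several growth factor precursors, rose by 4.04 and 2.00. *Adamts3*, the protease that matures VEGF-C, was well above background on no array, and its partner *Ccbe1* gave -0.59 (adjusted p = 0.409).

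Downstream of the receptors, 9 of 22 adaptors and effectors (40.9%) were called higher and 5 (22.7%) lower. The share lower was near the 22.1% of all genes and under the 29.1% of genes well above background on all arrays of a condition. The largest increases were in *Nck2* (2.06), an adaptor to the cytoskeleton, the kinase *Fyn* (1.80) and the transcription factor *Stat5b* (1.71), followed by *Sos2*, *Pik3r1*, *Ptpn11*, *Lyn*, *Pik3ca* and *Plcg1* (0.75 to 1.37). *Plcg2* (-1.51), *Yes1* (-1.20), *Gab1* (-0.82), *Crkl* (-0.80) and *Stat5a* (-0.64) fell. The call of *Stat5a* was lost in 7 of 18 alternatives, among them the normexp settings and the leaving out of untreated replicate 1 or RA replicate 3, and that of *Plcg1* in 4, among them without untreated replicate 1 or RA replicate 2 or 4.

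Among the 9 brakes on receptor signalling, *Grb10* (2.59, adjusted p = 8.35e-06) and *Cblb* (1.37, adjusted p = 0.000695) rose, while *Inpp5d*, the lipid phosphatase SHIP, fell by 4.34 (SE 0.22, adjusted p = 3.80e-06) and *Sh2b3* by 0.95. *Ptpn6* was not called (2.84, SE 1.75), as untreated replicate 2 read -7.78 where the other untreated arrays read 0.39 to 0.92, and it was called higher without that array. Of 12 Ras, ERK and Akt kinases 4 were called higher, among them *Akt1* (2.38, adjusted p = 7.19e-06), *Mapk3* (0.73) and *Nras* (0.63), and none lower. The call of *Nras* was lost without untreated replicate 2 or 3.

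Immediate early genes, which respond within minutes to growth factor signals, were called in both directions, 4 of 11 higher and 6 lower. *Jun* rose by 3.19 (SE 0.16, adjusted p = 3.30e-06) and *Atf3* by 3.11, with smaller increases of *Ier3* (0.77) and *Srf* (0.66). *Egr1* fell by 3.55 (SE 0.60, adjusted p = 0.00154), *Fosl1* was at least 12.1-fold lower as processed here (a measured log2 difference of -1.58 with the authors' values) and not well above background on any RA array, and *Ier2*, *Egr2*, *Fosb* and *Fos* fell by 1.61, 1.33, 1.01 and 0.99. The call of *Srf* was lost with the replicate number as a block (adjusted p = 0.0541) and without untreated replicate 3 or RA replicate 3.

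Of 13 hypoxia genes, which include regulators of *Vegfa*, 4 (30.8%) were called higher and 3 (23.1%) lower. The latter share was near the 22.1% of all genes and under the 29.1% of genes well above background on all arrays of a condition. *Egln1*, an oxygen sensor, rose by 1.65 (adjusted p = 0.000986), *Hif1a* by 1.19 (adjusted p = 0.00136), the glucose transporter *Slc2a1* by 1.00 and *Vhl* by 0.65. *Pdk1* (-2.25), *Egln3* (-2.00) and *Ankrd37* (-0.92) fell. *Adm* (0.27, adjusted p = 0.594) and *Bnip3* (0.17, adjusted p = 0.681) were not called. *Epas1*, a paralog of *Hif1a*, was not called (-0.84, adjusted p = 0.0507), and passed with the replicate number as a block (adjusted p = 0.0452). The call of *Vhl* was lost without untreated replicate 3.

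The sizes of some changes moved with the processing. The smallest differences were 2.57 for *Nrp1*, 0.95 for *Flt4*, 0.64 for *Plau* and 0.92 for *Egln1* with normexp and the 75th percentile, 2.69 for *Flt1*, 1.79 for *Pcsk5* and 0.76 for *Cblb* with the mean over the probes of a gene, and -1.58 for *Fosl1* with the authors' values, all still called. That of *Fosb* was -0.38 with normexp and quantile normalization, not called. *Fosb* also lost its call with the authors' values, and *Flt3l* and *Lyn* lost theirs with those values and with both uses of normexp. For *Crk* and *Ptprj*, not called on the brightest probe (0.34 and 0.29), a dimmer probe was called lower (-1.10 and -2.98), and for *Cblb* and *Srf* a dimmer probe was not called (0.15 and -0.16). Some genes not called here passed when a single array was left out, namely *Pdgfrl* and *Csf1r* without untreated replicate 3, *Sos1*, *Src* and *Ptpn6* without untreated replicate 2, *Junb* without untreated replicate 1, *Map2k2* without untreated replicate 4 and *Epas1* without untreated replicate 3 or RA replicate 1. Of these, *Map2k2* also passed with quantile normalization, normexp and quantile normalization, the authors' values and the percentile over detected probes, *Junb* with the filter on dim probes and the slide as a block, and *Epas1* with normexp and the 75th percentile, the filter on dim probes and the mean over probes. The difference of *Src* was -0.0054 with normexp and the 75th percentile.

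**Figure D4:**
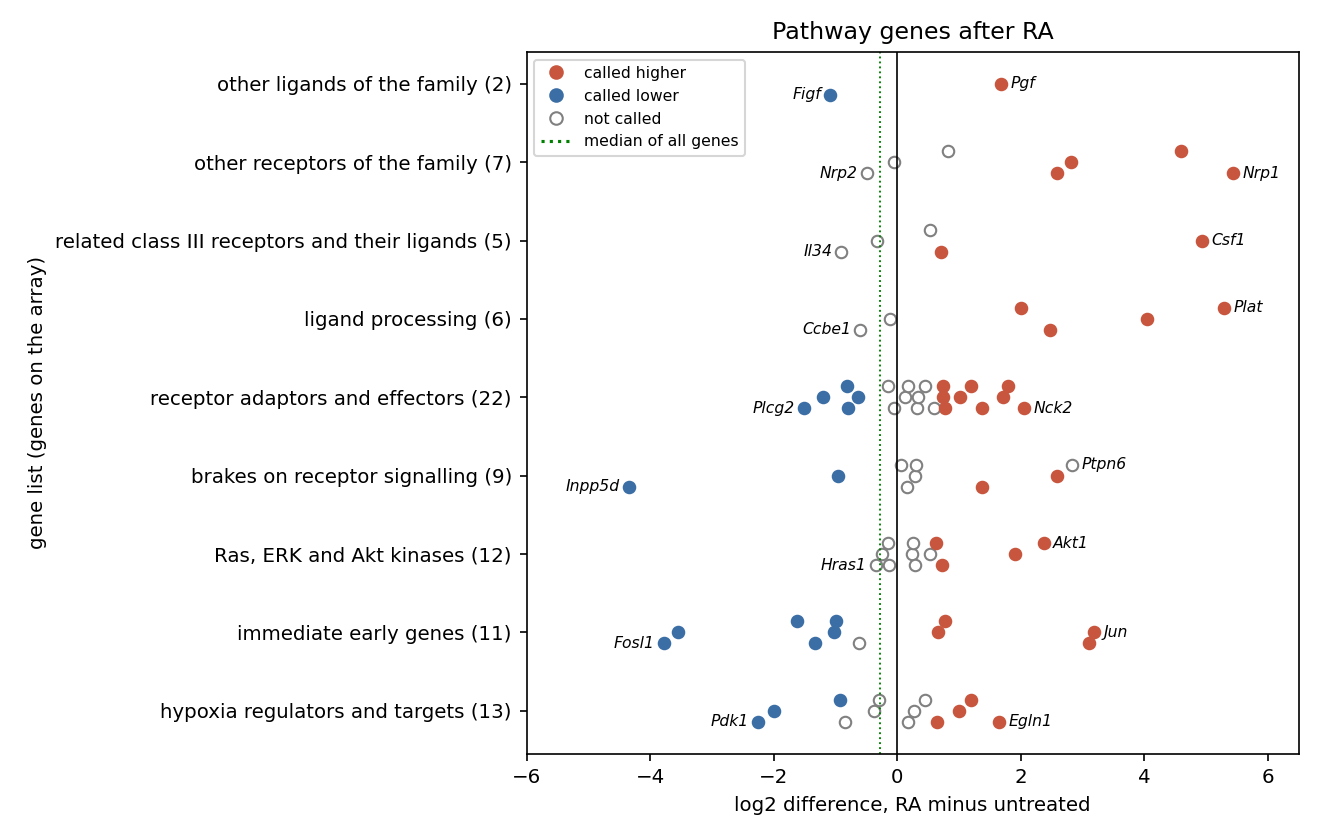
Log2 difference (RA minus untreated) of the 87 other pathway genes, grouped by role (rows, number on the array in brackets), in red where called higher, in blue where called lower and open where not called, with the lowest and highest gene of each row named. All calls among receptors, ligand-processing genes, class III genes and kinases were higher, while adaptors, brakes, immediate early and hypoxia genes hold calls on both sides of the dotted line at the median of all genes (-0.28).

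Marker genes of the cells in which these factors are known were read on the same arrays. Of 12 mural markers 7 were called higher, led by the smooth muscle genes *Acta2* (9.19) and *Tagln* (6.87), and 2 lower, *Anpep* (-0.87) and *Abcc9* (-2.23, well above background on 2 untreated arrays and no RA array). The pericyte marker *Cspg4* was not called (-0.22), and *Kcnj8* was well above background on no array. The 7 called higher include *Rgs5*, *Notch3* and *Des*. *Rgs5*, also known from pericytes, read -7.36, -5.57, -3.71 and -7.33 in untreated replicates 1 to 4 and -1.35, -2.68, -2.18 and -3.16 after RA. It was well above background on untreated replicate 3 and on every RA array. The summed level of the mural list, the log2 of the sum of its linear values, was 8.29 to 9.0 after RA against 5.09 to 5.82 before. Without *Acta2* and *Tagln*, left out after their values were seen, it was 6.18 to 6.51 against 5.02 to 5.76. Of 8 fibroblast markers 6 were called higher, with summed levels of 4.94 to 5.62 against 0.085 to 0.88, and all 9 primitive endoderm markers were, with 8.06 to 8.27 against 6.65 to 7.20. *Sparc*, at 7.65 to 7.96 after RA and 6.43 to 6.95 before, made up most of the primitive endoderm sum. Of 11 endothelial markers 1, *Flt1*, was called higher and 5 lower, among them *Vwf* (-4.91), *Pecam1* (-2.96) and *Tek* (-2.90), and the defining genes *Cdh5* and *Emcn* were well above background on no array. The summed endothelial level was 4.09 to 4.79 after RA and 4.39 to 5.20 before. Without *Egfl7* (-0.58, not called), likewise left out, it was 1.76 to 3.42 after RA and 2.53 to 2.85 before, which overlapped. Without *Flt1* as well, the 1 marker of the list called higher, it was 0.99 to 1.45 after RA and 2.51 to 2.83 before. As that choice favours a lower sum after RA, the separation adds nothing to the calls. Of 7 melanocyte and neural crest markers 5 were called lower, among them *Mitf* (-3.66), and 1 higher. Of the 5, *Dct* and *Tyrp1* were well above background on 1 of the 8 arrays, untreated replicate 3. The summed level of the list was 0.25 to 0.55 after RA against 2.71 to 3.61 before. None of 6 mast cell markers was called, with 3 of them well above background on no array. With the replicate number as a block the calls of *Des* (mural, adjusted p = 0.0737), *Esam* (endothelial, 0.0731) and *Tyr* (melanocyte, 0.0648) were lost. The part of such cells in the values of *Pdgfrb*, *Vegfa*, *Kit* and *Kitl* was not tested.

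**Figure D5:**
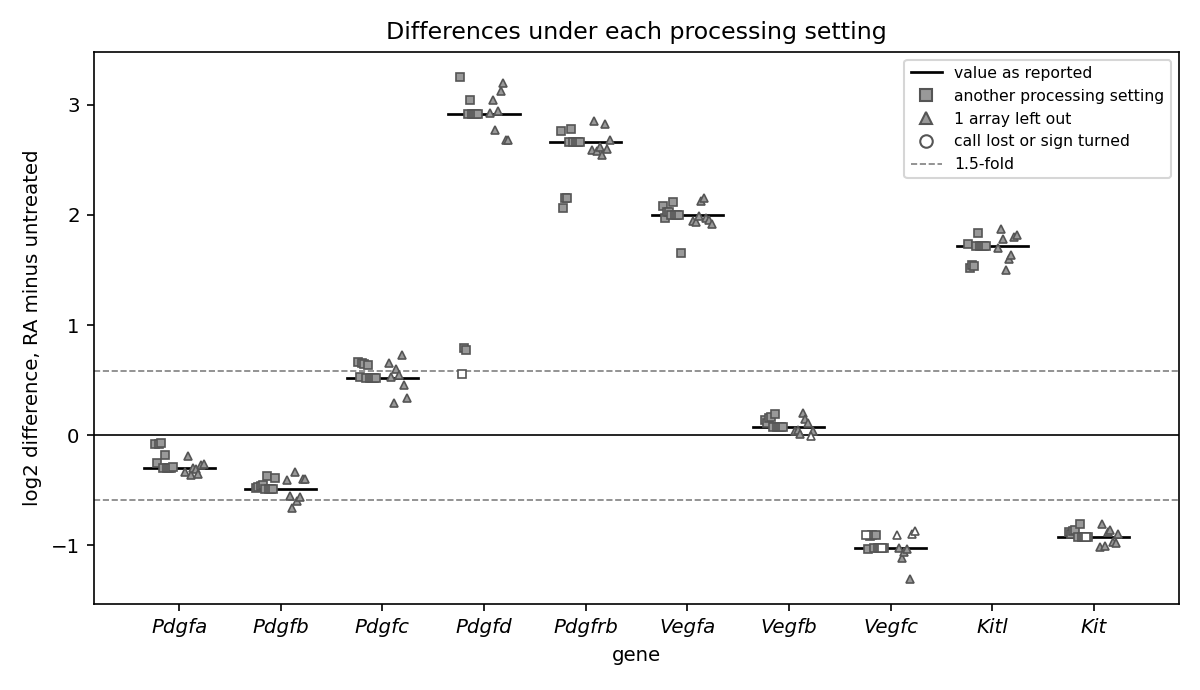
Log2 difference (RA minus untreated, vertical axis) of the 10 genes under 10 other processing settings (squares) and with each of the 8 arrays left out (triangles), with the reported value as a black bar, 1.5-fold as dashed lines and open symbols where a call was lost or the sign turned. *Pdgfd* spans 0.56 to 3.25 over the settings, *Pdgfrb*, *Vegfa* and *Kitl* keep their call under every setting shown, and the open symbols belong to *Pdgfd*, *Vegfc*, *Kit* and *Vegfb*.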

How the data were processed

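For each of 8 arrays the authors deposited a scanner file (Agilent Feature Extraction 10.7.3.1, probe positions on mm9), whose processed intensity is corrected for background and not normalized between arrays. They also deposited log2 values of the same spots with a shared distribution, used here as an alternative. The sources used here name no normalization.

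In R (4.3.3), the 75th percentile over the 59305 non-control spots of each array was subtracted from the log2 processed intensity, 3671 control spots and outlier spots (124 to 145 per array) were left out, and spots of a probe were averaged, with no filter on dim probes. The brightest probe, by its mean over all arrays, stood for a gene. RA and untreated arrays were compared in limma (3.58.1, lmFit and eBayes), with Benjamini-Hochberg adjustment over 55681 probes. A probe well above background on no array of a condition has only a bound there, set on each array by the dimmest probe that still stood well above background, or by the probe's own signal where that was higher. The precision is limited by 4 arrays per condition.

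The 10 genes, 9 pathway lists, 11 marker lists and tests were chosen with earlier results of these data known. Named were all 10 genes, called genes of the pathway lists, and the 3 genes most like *Pdgfd* and *Vegfc*. Some items that fall under this rule are not reported here. Other genes without a call are named beside their family after their values had been seen.

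Each of 2 slides held 2 arrays of each condition. Replicate numbers are those of the labels. Whether they pair the cultures was checked over 27493 probes: after removal of the condition means, the RA and untreated arrays with the same number correlated at 0.186, 0.189, 0.104 and 0.151 (replicates 1 to 4), all over 0.1, and the best correlation across numbers was 0.142. That of replicate 3 lay below this best value, so the correlations do not show that every number pairs its cultures. The RA and untreated arrays of the same number shared a slide for replicates 1 and 2. They lay on different slides for replicates 3 and 4. The part of the slide in these correlations was not tested. The fit with a replicate block takes the numbers as pairs and is given as an alternative only.

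In simulated data with 4 against 4 arrays and 55640 probes, 82 of 100 probes changed by a log2 value of 2 and 37 of 100 changed by 1 were called, with 8 unchanged probes called. No other probe was changed, while 34.6% of all probes were called in the data. Benjamini-Hochberg adjustment is stricter where few probes change, so these shares do not carry over to the data. Sequences came from the scanner output and from RefSeq (GRCm38.p6). All 11 transcript accessions of the 13 probes matched a RefSeq gene with the same symbol. Figures used matplotlib.

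Alternatives were quantile normalization, normexp background correction (offset 50), the authors' values, a filter on dim probes, the percentile over detected probes, slide or replicate number as a block, a test against 1.5-fold, the mean over probes of a gene, and leaving out each array.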

Additional observations from a re-analysis of the deposited data

Results flagged for a closer look

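In untreated cells *Pdgfrb* read -2.46 on replicate 2, apart from the other 3 untreated arrays at -3.27 to -3.17. *Vegfb* read 2.02 on untreated replicate 4, apart from the others at 1.45 to 1.54. Both passed Dixon's critical value for a group of 4. In all 26 groups of 4 values were examined over the 13 probes, of which chance would put 1.3 past that value, and 2 were past it. Without those arrays *Pdgfrb* was still called higher and *Vegfb* was still not called.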

How the results depend on the processing

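*Pdgfrb*, *Vegfa* and *Kitl* kept their call and direction under all 18 alternatives. *Pdgfd* was not called with normexp and the 75th percentile (0.56, adjusted p = 0.0183, under 1.5-fold). *Vegfc* lost its call with quantile normalization (-0.90, adjusted p = 0.0502), and with the test against 1.5-fold *Vegfc* (-1.03, adjusted p = 0.313) and *Kit* (-0.93, adjusted p = 0.206) did. Leaving out 1 array gave -1.30 to -0.87 for *Vegfc* (adjusted p 0.0022 to 0.0617) and -0.0039 to 0.20 for *Vegfb*, whose sign turned without RA replicate 3 (-0.0039). The genes called lower among the 10 were 1 with quantile normalization, 0 with the limma test against 1.5-fold (1, *Kit*, at an unadjusted p under 0.05), and 1 to 2 with 1 array left out. That test also gave 23 pathway genes called higher in place of 34 and 8 lower in place of 17 (adaptors 5 higher in place of 9 and 2 lower in place of 5, kinases 2 higher in place of 4, hypoxia genes 2 higher in place of 4, immediate early genes 2 higher in place of 4 and 3 lower in place of 6), and over all probes 4171 called higher in place of 7196 and 5728 lower in place of 12044. Probes called lower were 6603 with normexp and quantile normalization and 6583 with the authors' values. The causes were not tested. With the replicate block, *Pdgfd* gave an adjusted p of 0.0026 and *Kit* of 0.0111. Pairing by replicate number changed the calls of *Srf*, *Il34* and *Epas1* among the pathway genes, of the markers *Des*, *Esam* and *Tyr*, and no call of the 10 genes, and gave 7223 probes higher and 12161 lower. Of 180 fold changes of the 10 genes under the alternatives, 172 kept their direction and call. A gene below background in a condition, such as *Pdgfd*, is only bounded, and the bound holds for the signal as processed here.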

Other observations

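The genes whose centred values over the 8 arrays lay closest to those of *Pdgfd*, by Euclidean distance among 16125 other genes with a gene name rather than a position, probe or transcript ID, a value on all 8 arrays and a signal well above background on all arrays of a condition, were *Rnf152* (distance 0.67, log2 difference 2.96), *Astn1* (0.69, 2.86) and *Vat1l* (0.73, 2.88). Closest to *Vegfc* were *Cd79a* (0.28, -1.12), *Adamts4* (0.41, -0.84) and *Syn1* (0.54, -0.85). *Pdgfd* was not well above background on any untreated array, so its distances and order rest on untreated values that are only bounded.

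The summed level of the germ cell markers, cells in which Kit is known to act, was 3.75 and 3.83 on RA replicates 1 and 2, 5.41 and 5.18 on replicates 3 and 4, and 3.73 to 4.17 in untreated cells, with 2 of 7 genes called higher (*Ddx4*, 1.82, and *Stra8*, 2.71, which is also in the RA response list) and 3 lower (*Dppa3*, *Prdm1* and *Nanos3*). *Stra8* read 2.70, 2.79, 5.19 and 4.92 on RA replicates 1 to 4. Of 9 blood markers on the array 1 was called higher and 3 lower, with summed levels of 0.81 to 1.54 after RA and 0.93 to 1.35 before. Of 7 neural markers 2 were called higher and 1 lower, with 3.40 to 3.57 after RA and 2.60 to 3.27 before.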
